A study of Mus musculus with 24 samples.

Results

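The genes described here carry fatty acids into mitochondria and set the level of malonyl-CoA, the metabolite that holds this entry back. Members were chosen by name: the platform's annotation was searched for probe sets assigned to Cpt1a, Cpt1b, Cpt2, Slc25a20, Slc22a5, Crat, Mlycd and Acacb. Of these 8 genes, 7 had a probe set of their own, 1 each, and 6 passed a filter on low values, out of 14754 genes with a probe set of their own and 5793 genes tested. Acacb, which encodes the mitochondria-associated acetyl-CoA carboxylase that makes malonyl-CoA, is not analysed here. Slc22a5 lay below the filter and is given by its values only.

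Quadriceps muscle was taken from male C57BL/6J mice, a strain the sample labels spell C56BL/6J, and RNA of each animal was read on its own Affymetrix mouse genome array. High fat mice ate a palm oil diet with 45% of the energy as fat and low fat mice a palm oil diet with 10%, after all had eaten the low fat diet for 3 weeks from 9 weeks of age. The 4 groups were high fat for 28 days, low fat for 28 days, high fat for 3 days and low fat for 3 days, with 6 mice each and 24 arrays in all. Mice of the 28-day groups were 16 weeks old and mice of the 3-day groups 12 weeks old, which means that age and days of feeding cannot be told apart. Assignment to diet was random per the labels, yet each diet and day holds its own range of mouse numbers, so the diet and the set of animals cannot be told apart either. The tissue is a whole muscle, in which fewer cells of a type and less RNA per cell cannot be told apart.

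Long-chain fatty acids cross the inner mitochondrial membrane bound to carnitine. Carnitine palmitoyltransferase 1 on the outer membrane (Cpt1b in muscle, Cpt1a in liver and many other tissues) makes acylcarnitine, the carrier Slc25a20 exchanges it for free carnitine, and Cpt2 on the inner membrane returns the acyl group to coenzyme A for beta-oxidation. Malonyl-CoA blocks the first enzyme. Acetyl-CoA carboxylase makes malonyl-CoA and malonyl-CoA decarboxylase, the product of Mlycd, removes it. Slc22a5 brings carnitine into the cell, and carnitine acetyltransferase, the product of Crat, moves acetyl groups between coenzyme A and carnitine. Fatty acids act on many of these genes through PPAR receptors, which bind direct repeats of a hexamer with 1 base between them (DR1).

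Promoters are shown for a gene pair that was higher on high fat at day 28, Slc25a20 and Mlycd, and for Cpt2, the enzyme next to the carrier, which was not called at either day. They are RefSeq sequences of build GRCm38.p6, from 250 bases before to 50 bases after the annotated start, in the direction of the gene, and capitals mark a match, on either strand, to the DR1 letters, which are AGGTCA, any base and AGGTCA again. Of the 8 genes, 6 had a promoter in the table used, and those of Cpt1b and Crat are not shown. Slc25a20 lies at chr9:108661886-108662185 on the plus strand, Mlycd at chr8:119394644-119394943 on the plus strand and Cpt2 at chr4:107923540-107923839 on the minus strand.
Slc25a20: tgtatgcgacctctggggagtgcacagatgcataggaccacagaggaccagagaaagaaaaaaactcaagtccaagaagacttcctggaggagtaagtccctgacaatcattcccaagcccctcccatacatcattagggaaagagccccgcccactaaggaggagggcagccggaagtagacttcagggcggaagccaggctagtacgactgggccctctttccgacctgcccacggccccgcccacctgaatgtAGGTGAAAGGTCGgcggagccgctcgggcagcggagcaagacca
Mlycd: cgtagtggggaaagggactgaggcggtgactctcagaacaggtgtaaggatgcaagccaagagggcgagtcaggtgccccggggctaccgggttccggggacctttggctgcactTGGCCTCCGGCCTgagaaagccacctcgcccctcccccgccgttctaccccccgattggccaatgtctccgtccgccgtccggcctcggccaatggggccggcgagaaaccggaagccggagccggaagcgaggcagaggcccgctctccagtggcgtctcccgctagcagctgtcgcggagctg
Cpt2: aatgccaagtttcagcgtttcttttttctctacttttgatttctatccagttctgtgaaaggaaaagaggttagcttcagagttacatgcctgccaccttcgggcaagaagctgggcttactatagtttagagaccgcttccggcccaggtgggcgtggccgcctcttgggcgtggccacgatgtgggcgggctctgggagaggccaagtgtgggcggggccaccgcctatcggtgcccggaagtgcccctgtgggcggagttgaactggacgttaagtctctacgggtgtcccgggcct

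The Slc25a20 match runs from base 7 to base 19 after the start and differs from the DR1 letters at 2 bases. A match with at most 2 mismatches was present in 3.86% of 32851 promoters, and in 1 of the 6 member promoters. The Mlycd match lies on the opposite strand, at positions -135 to -123 from the start, and has 3 mismatches. With 3 mismatches allowed, 24.6% of all promoters and 3 of the 6 member promoters held a match, the third being Acacb, and Cpt2, Cpt1a and Slc22a5 held none. The ERR element TCAAGGTCA with at most 1 mismatch was in 0 of the 6 member promoters and in 7.46% of all promoters. These matches describe letters in a 300-base window and were not tested for binding.

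All values are log2 of the deposited intensities, in which a difference of 1 means a doubling, and each gene's change is the mean of the high fat arrays minus that of the low fat arrays. A gene is called where limma's adjusted p, taken over all 5793 tested genes, was under 0.05. At day 28, 4 of the 6 tested members were called and all 4 were higher on high fat (Slc25a20, Cpt1b, Mlycd and Crat), while 5.35% of all tested genes were called higher and 12.5% were called in either direction. At day 3, 3 of 6 were called, again all higher (Slc25a20, Cpt1b and Cpt1a), while 7.99% of all tested genes were called higher and 14.9% were called in either direction. The median change of the 6 members was 0.37 at day 28 and 0.24 at day 3, against 0.0097 and -0.0051 over all tested genes. Since Cpt1a passed the filter through 6 arrays, 4 of them in the high fat group of day 3, its place in these counts and medians depends on that group. Without Cpt1a, the day 3 calls were Slc25a20 and Cpt1b.

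Marker genes of other cell and fibre types differed between the diets on the same arrays, and their part in the members' changes was not tested. Fits with a marker mean as a covariate are given with the called members as a description. The mean level of 11 slow fibre genes was 8.62 to 9.6 in high fat and 5.05 to 7.86 in low fat muscle at day 28, and 8.53 to 10.8 in high fat and 4.53 to 7.66 in low fat muscle at day 3. The adipocyte mean holds 7 genes, and 1 of them, Car3, was not lower on high fat at either day. The mean level of these 7 adipocyte genes was 6.57 to 8.03 in high fat and 9.17 to 10.6 in low fat muscle at day 28, and 6.87 to 9.89 in high fat and 7.6 to 10.0 in low fat muscle at day 3. The slow fibre mean therefore did not overlap between the diets at either day, and the adipocyte mean did not overlap at day 28. Where a mean is split by diet in this way, a fit with it as a covariate cannot tell it from the diet. A call kept or lost in such a fit therefore decides nothing about the markers' part. With the slow fibre mean, 26 genes were called at day 28 and 17 at day 3, against 726 and 861 without it.

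**Figure D1:**
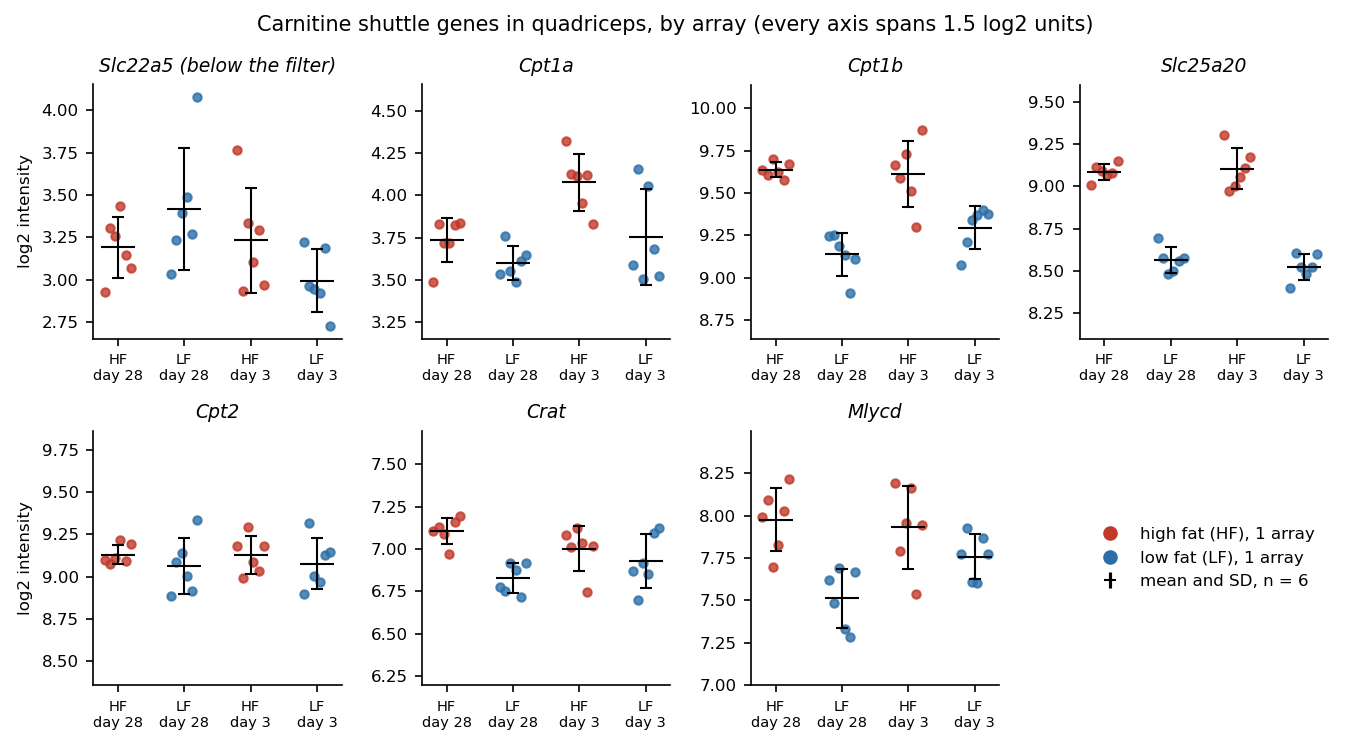
Log2 intensity of the 7 measured genes in each of the 24 arrays, with points for single mice, high fat (HF) in red and low fat (LF) in blue, and the mean and SD of each group of 6 in black; every axis spans the same width but has its own origin. The Slc25a20 points of the 2 diets are apart at both days, those of Cpt1b, Crat and Mlycd at day 28, and the Cpt2 points overlap at both days.

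Slc25a20, the carnitine-acylcarnitine carrier, was the member with the smallest p at both days. At day 28 its lowest, median and highest values were 9.01, 9.08 and 9.15 in high fat muscle, against 8.48, 8.57 and 8.69 in low fat muscle. At day 3 they were 8.98, 9.08 and 9.30 in high fat muscle, against 8.40, 8.53 and 8.60 in low fat muscle. Every high fat array stood above every low fat array of its day. Only 3.49% of all tested genes had high fat arrays entirely above low fat arrays at day 28, and 3.5% at day 3. The change was 0.52 at day 28 (SE 0.056, limma adjusted p = 3.054e-06), a fold of 1.43 with a 95% interval of 1.32 to 1.56. At day 3 it was 0.58 (SE 0.056, limma adjusted p = 5.877e-07), a fold of 1.49 with an interval of 1.38 to 1.62. By p-value the carrier ranked 7 among the 5793 genes at day 28 and 5 at day 3. With slow fibre level as a covariate the carrier stayed called at both days (0.47, limma adjusted p = 0.03099 at day 28, and 0.52, 0.02348 at day 3), and likewise with adipocyte level (0.63, 0.002021 at day 28, and 0.63, 3.809e-06 at day 3).

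Cpt1b, the carnitine palmitoyltransferase of the muscle outer mitochondrial membrane, was also called at both days. Its lowest, median and highest values at day 28 were 9.58, 9.63 and 9.70 in high fat muscle, against 8.91, 9.16 and 9.25 in low fat muscle, and the groups did not overlap. At day 3 they were 9.30, 9.63 and 9.87 in high fat muscle, against 9.07, 9.35 and 9.40 in low fat muscle. There, 5 of 6 high fat arrays were above the highest low fat array, and replicate 5 of the high fat group lay inside the low fat range. The change was 0.50 at day 28 (SE 0.080, limma adjusted p = 0.000213, 1.41-fold) and 0.32 at day 3 (SE 0.080, limma adjusted p = 0.009659, 1.25-fold). The high fat SD was 0.045 at day 28, against 0.20 at day 3.

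Neither Cpt1b call held once slow fibre level entered as a covariate (0.42, limma adjusted p = 0.1959 at day 28, and 0.22, 0.5737 at day 3) or adipocyte level did (0.40, 0.2431 at day 28, and 0.27, 0.05809 at day 3). Except for adipocyte level at day 3, these levels did not overlap between the diets, so the fits cannot tell them from the diet. The day 3 call also ended when only the 12 arrays of that day entered the fit (limma adjusted p = 0.05969).

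Cpt1a, the outer membrane enzyme best known from liver, was measured near the filter, which asks for a log2 value over 4 on at least 6 of 24 arrays. Exactly 6 arrays passed that level: 4 high fat and 2 low fat arrays of day 3. Its lowest, median and highest values at day 28 were 3.49, 3.77 and 3.83 in high fat muscle, against 3.49, 3.58 and 3.76 in low fat muscle, with a change of 0.14 that was not called (95% interval -0.082 to 0.35). At day 3 they were 3.83, 4.12 and 4.32 in high fat muscle, against 3.50, 3.64 and 4.16 in low fat muscle, and the ranges overlapped. The day 3 change was 0.33 (SE 0.10, limma adjusted p = 0.03923).

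The Cpt1a call at day 3 was lost without the filter (limma adjusted p = 0.07086), with 16 added before the log (change 0.15, limma adjusted p = 0.06209), with a trended robust fit (0.06124), with the arrays of day 3 alone (0.1313) and with slow fibre level as a covariate (0.3322). The same happened without low fat day 3 replicate 1, 3, 5 or 6 in turn (limma adjusted p up to 0.09023), and in 6 of 24 such fits the gene no longer passed the filter.

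Cpt2, the inner membrane enzyme that hands the acyl group back to coenzyme A, was not called at either day. Its lowest, median and highest values at day 28 were 9.08, 9.11 and 9.22 in high fat muscle, against 8.88, 9.05 and 9.34 in low fat muscle. At day 3 they were 8.99, 9.13 and 9.29 in high fat muscle, against 8.90, 9.07 and 9.32 in low fat muscle. At both days the high fat range lay inside the low fat range. The change was 0.069 at day 28 (95% interval -0.090 to 0.23, limma adjusted p = 0.6279) and 0.050 at day 3 (-0.11 to 0.21, limma adjusted p = 0.7038). In percent, the intervals reach from 6.07% lower to 17.1% higher at day 28 and from 7.28% lower to 15.7% higher at day 3.

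Crat, which buffers acetyl-CoA as acetylcarnitine, was called at day 28. Its lowest, median and highest values at that day were 6.97, 7.12 and 7.20 in high fat muscle, against 6.72, 6.83 and 6.92 in low fat muscle, without overlap. The change was 0.28 (SE 0.073, limma adjusted p = 0.01101, 1.22-fold). At day 3 the values were 6.75, 7.03 and 7.12 in high fat muscle, against 6.698, 6.897 and 7.124 in low fat muscle, and the change of 0.076 was not called (95% interval -0.074 to 0.23, limma adjusted p = 0.5116). The day 28 call did not hold with slow fibre level (0.19, limma adjusted p = 0.7197) or adipocyte level (0.18, 0.6011) as a covariate. As both levels were split by diet at that day, these fits cannot tell them from the diet.

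Mlycd, the decarboxylase that removes malonyl-CoA, was likewise called at day 28. Its lowest, median and highest values at that day were 7.70, 8.01 and 8.22 in high fat muscle, against 7.28, 7.55 and 7.69 in low fat muscle, without overlap. The change was 0.46 (SE 0.11, limma adjusted p = 0.005249, 1.38-fold). At day 3 the values were 7.54, 7.95 and 8.19 in high fat muscle, against 7.60, 7.77 and 7.92 in low fat muscle, and the change of 0.17 was not called (95% interval -0.049 to 0.39, limma adjusted p = 0.2965). Its day 28 call did not hold with slow fibre level (0.43, limma adjusted p = 0.4356) or adipocyte level (0.33, 0.5268) as a covariate. Neither level overlapped between the diets at that day, so these fits cannot tell it from the diet.

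High fat day 3 replicate 5 was the lowest array of its group for Cpt1b, Crat and Mlycd, and its adipocyte mean of 9.89 was the highest of the group, in which the other arrays reached 8.30 at most. Without it the day 3 change of Mlycd was 0.25 and still not called (limma adjusted p = 0.09985). That was the highest of 24 fits with 1 array left out, and the lowest was 0.12, without high fat day 3 replicate 1. Replicate 5 was singled out after its values were seen.

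Slc22a5, the plasma membrane carnitine transporter, was read between 2.73 and 4.08 on all arrays, and 1 array exceeded a log2 value of 4. Its mean was 3.19 ± 0.18 in high fat and 3.42 ± 0.36 in low fat muscle at day 28, and 3.23 ± 0.31 in high fat and 3.00 ± 0.18 in low fat muscle at day 3 (SD, n = 6 each). When the filter was dropped, neither the difference of -0.23 at day 28 (limma adjusted p = 0.4692) nor that of 0.24 at day 3 (0.4285) was called. At this signal a change of the transporter's mRNA was not detectable.

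**Figure D2:**
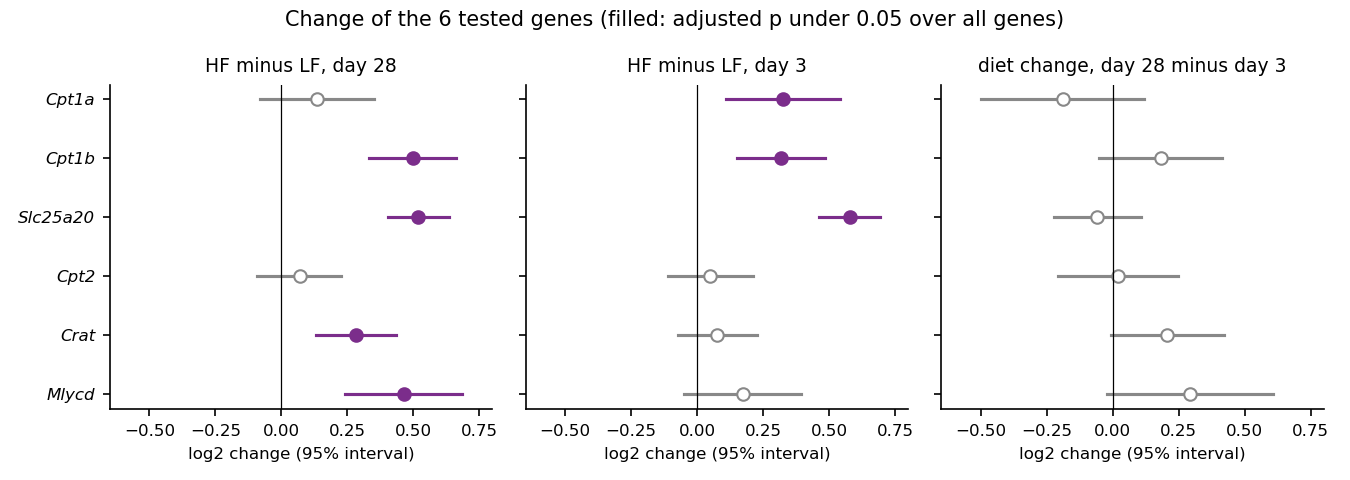
Log2 change of the 6 tested genes on high fat against low fat at day 28 and at day 3, and the difference between the days, with 95% intervals; filled points passed an adjusted p of 0.05 over all tested genes. Slc25a20 and Cpt1b are filled at both days, Cpt2 at neither, and no difference between the days is filled.

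Whether neighbouring steps changed by unequal amounts was tested within arrays, by taking the difference of 2 members' log2 values on each array and permuting the diet labels exactly (two-sided, n = 6 against 6, smallest p possible 0.00216). All 30 pairs and days were tested together with Benjamini-Hochberg adjustment, a test added after the members' values were known. Cpt1a exceeded a log2 value of 4 on 0 of the 12 arrays of day 28, so its pairs are in the adjustment but are left out here. Cpt1a minus Cpt1b at day 3 appears only where the processing settings are compared. Of the 10 pairs of the other 5 members, 6 passed at day 28 and 6 at day 3. The share of all gene pairs that would pass was not computed. These counts therefore do not show that unequal changes are particular to the members.

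The carrier and Cpt2, which act in sequence at the inner membrane, changed by unequal amounts at both days. The change of Cpt2 minus that of Slc25a20 was -0.45 at day 28 and -0.53 at day 3 (exact permutation adjusted p = 0.013 at both), and at both days all 6 high fat arrays lay below all 6 low fat arrays. Cpt1b exceeded Cpt2 by 0.43 at day 28 (exact permutation adjusted p = 0.013) and by 0.27 at day 3 (0.0295). Slc25a20 exceeded Crat by 0.24 at day 28 and by 0.50 at day 3 (exact permutation adjusted p = 0.0162 at both). Mlycd exceeded Cpt2 at day 28, with a difference of -0.39 for Cpt2 minus Mlycd (exact permutation adjusted p = 0.026).

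Slc25a20 exceeded Mlycd by 0.41 at day 3 (exact permutation adjusted p = 0.0162), and the difference at day 28 was 0.057 (0.664). Cpt1b and Slc25a20 differed by -0.022 at day 28 (exact permutation adjusted p = 0.794) and by -0.26 at day 3 (0.0476), a day 3 call that 9 of 12 tests with 1 array left out did not keep. The same held for 2 day 28 calls, Cpt2 minus Crat at -0.21 (exact permutation adjusted p = 0.0379) and Cpt1b minus Crat at 0.22 (0.0417). Of these, Cpt1b with Crat also lost the call after quantile normalization (exact permutation adjusted p = 0.0557).

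By limma's interaction test of the diet change between the days, 0 of the 6 members were called and 0 had an unadjusted p under 0.05, while 1.38% of all tested genes were called. The day 28 change minus the day 3 change was 0.29 for Mlycd (unadjusted p = 0.06767, limma adjusted p = 0.3004) and 0.21 for Crat (0.05628, 0.2815). It was 0.18 for Cpt1b, 0.019 for Cpt2, -0.059 for Slc25a20 and -0.19 for Cpt1a. So the absence of a day 3 call for Mlycd and Crat, and of a day 28 call for Cpt1a, does not show that their changes differ between the days. Among the genes of the lists around the shuttle, given below, this test called only Stk11 (limma adjusted p = 0.0249). The same limit holds for the others.

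Between the days within a diet, 0 of 6 members were called, against 0.552% of all tested genes on high fat and 0.345% on low fat. On high fat, Cpt1a alone had an unadjusted p under 0.05, with a mean of 3.74 at day 28 against 4.08 at day 3 (change -0.34, SE 0.10, limma adjusted p = 0.1416), the day 28 values all lying below 4. On low fat it was Mlycd alone, with 7.51 at day 28 against 7.76 at day 3 (change -0.25, SE 0.11, limma adjusted p = 0.2596). The Slc25a20 means were 9.08 at day 28 and 9.10 at day 3 on high fat, and 8.57 at day 28 and 8.53 at day 3 on low fat.

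Most genes that use the delivered acyl groups in the matrix were higher on high fat. Of 10 matrix beta-oxidation genes, all tested, 8 rose at each day and 0 fell, with a median change of 0.35 at day 28 and 0.33 at day 3. The slow fibre mean was also higher on the same arrays, without overlap between the diets at either day, and its part in this group's change was not tested. Acaa2, the thiolase that ends each round, rose by 0.73 at day 28 (limma adjusted p = 8.07e-06) and by 0.80 at day 3 (1.76e-06). Acadm, the medium-chain acyl-CoA dehydrogenase, rose by 0.43 at day 28 (limma adjusted p = 4.62e-05) and by 0.37 at day 3 (0.000247). Etfdh, which passes the electrons of these dehydrogenases to ubiquinone, rose by 0.36 at day 28 (limma adjusted p = 0.000399) and by 0.33 at day 3 (0.00103). The 2 genes that were not called, named after their values were seen, were Hadhb, a trifunctional protein subunit, and Etfa, an electron transfer flavoprotein subunit, at both days. Hadhb changed by 0.25 at day 28 and 0.20 at day 3, and Etfa by 0.20 at day 28 and 0.19 at day 3.

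On the side of malonyl-CoA, the list held 9 genes, 7 with a probe set and 6 tested. Acaca, the cytosolic acetyl-CoA carboxylase, is not analysed here. Of the 6, 4 fell at both days and 0 rose, with a median of -3.63 at day 28 and -1.74 at day 3. Fasn, the fatty acid synthase that consumes malonyl-CoA, averaged 4.78 ± 0.65 in high fat and 10.8 ± 0.65 in low fat muscle at day 28, and 6.27 ± 2.18 in high fat and 9.53 ± 1.45 in low fat muscle at day 3 (SD, n = 6 each). It fell by 5.98 at day 28 (limma adjusted p = 1.75e-05) and by 3.26 at day 3 (0.00519). Acly, which makes cytosolic acetyl-CoA from citrate, fell by 3.65 at day 28 (limma adjusted p = 1.75e-05) and by 1.83 at day 3 (0.00855). Slc25a1, the mitochondrial citrate carrier, fell at day 28 (limma adjusted p = 3.49e-05), with values of 2.70 to 3.37 in high fat muscle, all below the filter's level of 4, against 6.47 to 8.85 in low fat muscle. The size of that fall is not given, because the high fat level was too low to measure it. At day 3 the median was 3.59 in high fat and 6.05 in low fat muscle (limma adjusted p = 0.04). Thrsp, a lipogenic nuclear protein, fell by 3.60 at day 28 (limma adjusted p = 8.07e-06) and fell by 1.65 at day 3 (0.00976). These genes are strongly expressed in fat tissue, and 6 of the 7 genes listed as adipocyte markers also fell at day 28 and 3 of 7 at day 3. Car3, on that list and in the adipocyte mean, instead rose by 0.40 at day 3 (limma adjusted p = 0.00586). It was read at 11.9 to 12.8 over all arrays. Its day 3 values did not overlap between the diets, with high fat above low fat, as for the slow fibre mean. The adipocyte mean is therefore not made only of genes that fell. The fall of these malonyl-CoA neighbours therefore moved with the adipocyte markers that fell, whose part in it was not tested.

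Acyl-CoA supply was mixed among its 6 tested genes, of 10 listed. Acsl1, Fabp3 and Cd36 are not analysed here, and Slc27a4 lay below the filter. At day 28, 1 rose and 3 fell, and at day 3, 1 rose and 1 fell. Acsl6, an acyl-CoA synthetase, rose by 0.55 at day 28 (limma adjusted p = 0.000339) and by 0.60 at day 3 (0.000164). Acsl3, another synthetase, fell by 0.68 at day 28 (limma adjusted p = 0.00798) and by 0.74 at day 3 (0.00469). Acsl5 fell by 0.59 (limma adjusted p = 0.0104) and Dbi, the acyl-CoA binding protein, by 0.54 (0.0128) at day 28. Neither was called at day 3, where Acsl5 changed by -0.072 and Dbi by 0.16. The interaction test called neither (limma adjusted p = 0.195 for Acsl5 and 0.0671 for Dbi). Most adipocyte markers also fell at day 28, and their part in these 2 falls was not tested.

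Carnitine synthesis and transport, apart from the member Slc22a5, had 2 tested genes of 7 listed. Aldh9a1, an enzyme of carnitine synthesis, fell by 1.02 at day 28 (SE 0.24, limma adjusted p = 0.00611), and its day 3 change was -0.0039. The interaction test did not call this difference between the days (limma adjusted p = 0.115). Of the 4 other acylcarnitine genes, Crot, the peroxisomal carnitine octanoyltransferase, was the single one tested. It changed by -0.011 at day 28 (limma adjusted p = 0.955) and by -0.0081 at day 3 (0.965). Cpt1c, the brain form of the outer membrane enzyme, lay below the filter, between 1.6 and 2.44.

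AMP-activated protein kinase phosphorylates and inhibits acetyl-CoA carboxylase. Of 7 tested genes of this kinase and its activators, out of 11 listed, 0 were called at day 28 and 2 fell at day 3. Prkab2, a regulatory subunit, fell by 0.46 at day 3 (limma adjusted p = 0.0148). Stk11, the upstream kinase LKB1, fell by 0.23 at day 3 (limma adjusted p = 0.00283), where its values were 8.37 to 8.51 in high fat and 8.58 to 8.68 in low fat muscle. Its day 28 change was 0.13 and not called (limma adjusted p = 0.0822), and the day 28 change exceeded the day 3 change by 0.35 (limma adjusted p = 0.0249). Prkaa2, the muscle catalytic subunit, changed by 0.32 at day 28 (SE 0.71, limma adjusted p = 0.837) and by -0.22 at day 3 (0.87), with single arrays that spread widely.

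Among the PPAR, ERR and coactivator genes, 11 of 13 were tested. At day 28, 1 rose and 3 fell, and at day 3, 1 rose and 2 fell. Esrrg, an estrogen-related receptor of oxidative muscle, rose by 0.80 at day 28 (limma adjusted p = 0.00147) and by 0.88 at day 3 (0.000738). Ppara, the receptor for fatty acids in oxidative tissues, was not called, with 0.82 at day 28 (SE 0.66, limma adjusted p = 0.486) and 0.53 at day 3 (0.633). Ppargc1a, a coactivator of mitochondrial genes, changed by 0.45 at day 28 (limma adjusted p = 0.471) and by 0.85 at day 3 (0.111). Lpin1, a phosphatidate phosphatase and coactivator, fell by 0.45 at day 28 (limma adjusted p = 0.0127) and by 0.66 at day 3 (0.000609). Ncoa1 fell by 0.31 at day 28 (limma adjusted p = 0.0311) and Rxra by 0.29 at day 3 (0.00698), and neither was called at the other day. Pparg, the adipocyte receptor, fell at day 28 (limma adjusted p = 0.000194), with values of 2.37 to 3.05 in high fat muscle, below the filter's level, against 3.74 to 6.27 in low fat muscle. Ppard lay below the filter, between 2.18 and 2.81.

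**Figure D3:**
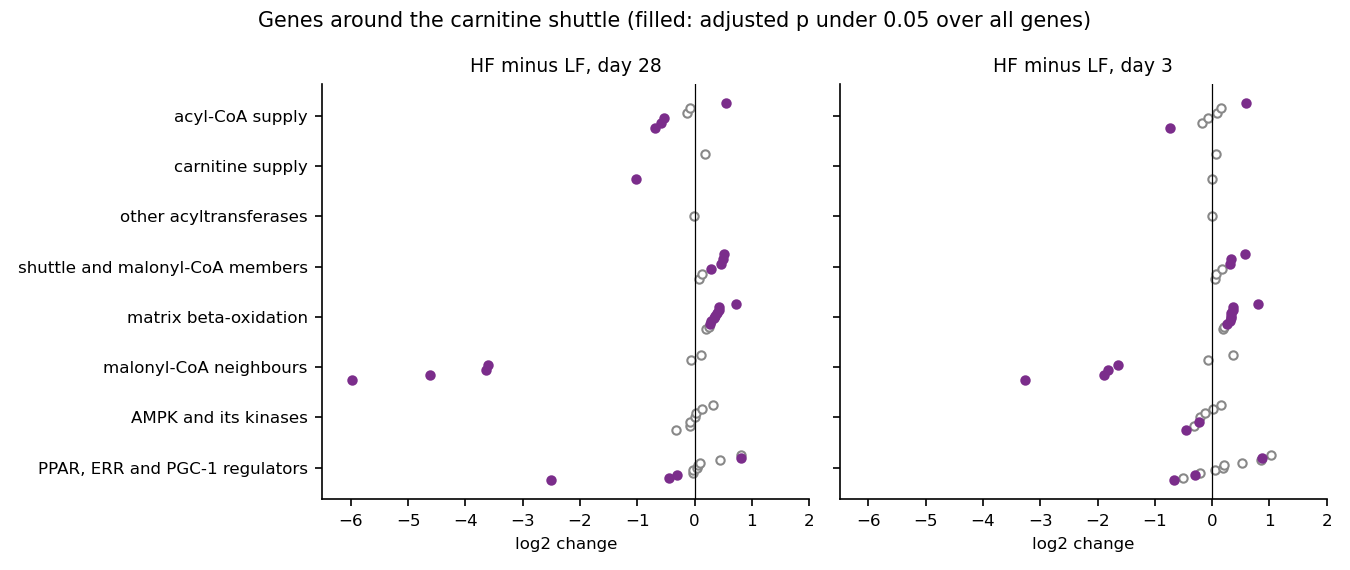
Log2 change on high fat against low fat at day 28 and at day 3 of every tested gene of the lists around the shuttle, one point per gene; filled points passed an adjusted p of 0.05 over all tested genes. The matrix beta-oxidation genes lie to the right of 0 at both days, and the 4 filled malonyl-CoA neighbours lie between -6 and -3 at day 28, where the point of Slc25a1 rests on high fat values below the filter's level.

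Whether mice of a group that were high for 1 member were high for the others was examined next. After the group means were subtracted, Pearson's r over the 24 arrays was positive for 12 of the 15 member pairs, with a median of 0.27 and a range of -0.35 to 0.53. The highest was Cpt1b with Crat at r = 0.53 (rho = 0.37), and Crat with Mlycd gave r = 0.49 (rho = 0.52). With labels permuted within groups and adjustment over 27 relations, none passed (lowest permutation adjusted p = 0.284 for r and 0.357 for rho). Leaving out the 2 arrays farthest from the Cpt1b median took Cpt1b with Crat to r = 0.28, so this value rested on those arrays. No relation of a member with the slow fibre mean or the adipocyte mean within the groups passed (permutation adjusted p of at least 0.597 for r and 0.45 for rho).

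For each member the 3 genes with the most similar deviations from the group means were taken as a description over the same 24 arrays, which share array-wide effects, and no p is given because they are the highest over all other tested genes. Cpt2 varied most like Etfdh (r = 0.87, rho = 0.90, and r = 0.87 without the 2 farthest arrays), followed by Tango2 (r = 0.82) and Acad11 (0.80). Etfdh was called at both days while Cpt2 was not. Slc25a20 varied most like Eci1, an enoyl-CoA isomerase of the matrix (r = 0.68, rho = 0.76), followed by Acot2, a mitochondrial acyl-CoA thioesterase (0.61), and Ddo (0.60). Eci1 was higher on high fat by 0.33 at day 28 (limma adjusted p = 0.00693) and by 0.35 at day 3 (0.00469). Crat varied most like Slc2a4, the insulin-responsive glucose transporter (r = 0.83), Nfe2l1 (0.78) and Actn2 (0.76).

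Cpt1b varied most like Usp28 (r = 0.79), Extl1 (0.74) and Dyrk1a (0.73), Mlycd most like Ube2q2, Polrmt and Ugp2 (0.73, 0.72 and 0.72), and Cpt1a most like Eif1a, Lamtor1 and Topbp1 (0.65, 0.64 and 0.63). The 99th percentile of r over all tested genes lay between 0.434 for Slc25a20 and 0.619 for Crat.

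**Figure D4:**
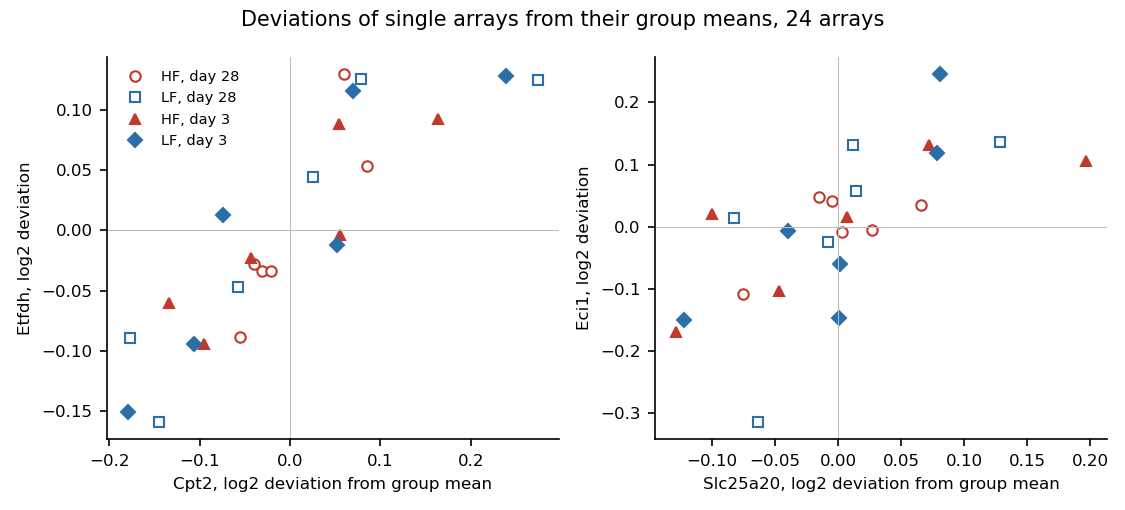
Deviation of each of the 24 arrays from its group mean, in log2 units, for Cpt2 against Etfdh (left) and Slc25a20 against Eci1 (right), with high fat in red, low fat in blue, open symbols for day 28 and filled symbols for day 3. The Cpt2 and Etfdh deviations rise together, with r = 0.87 over the 24 arrays.

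The arrays were alike in scale, with median intensities of 6.56 to 6.91 before the log and correlations of log2 values between arrays of 0.978 to 0.995. The labels name a DNase step for every sample but low fat day 3 replicate 1, and of the day 3 calls only that of Cpt1a was lost without this array. Markers of skeletal muscle held a mean of 12.6 to 12.8 on every array. The slow fibre markers rose in 9 of 11 tested at day 28 and 11 of 11 at day 3, and Myh7, the slow myosin heavy chain, rose at both days. Its values were 8.45 to 9.84 in high fat and 2.36 to 7.86 in low fat muscle at day 28 (limma adjusted p = 0.000759), and 7.96 to 11.35 in high fat and 2.23 to 7.23 in low fat muscle at day 3 (0.00029), so the low fat side lay partly below the filter's level. Adipoq, an adipocyte hormone, fell by 2.88 at day 28 (limma adjusted p = 0.00034), and its day 3 change was -1.18 (0.108). Ucp1, a brown fat gene, fell at day 28 (limma adjusted p = 0.026), with values of 2.09 to 2.44 in high fat muscle, below the filter's level, against 3.02 to 7.47 in low fat muscle, and was not called at day 3. Of the other markers tested at day 28 and day 3, endothelial genes rose in 1 and 6 of 9, fibroblast and tendon genes in 3 and 6 of 10 with 1 fall at day 28, and macrophage genes fell in 8 and 1 of 8. Fast fibre genes were called in 1 of 12 at each day. It was Myh2, which rose by 0.99 at day 28 (limma adjusted p = 0.00616) and by 1.18 at day 3 (0.00155). The part of these shifts in the members' values was not tested, and the covariate fits above cannot tell slow fibre level from the diet.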

How the data were processed

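RNA of 24 quadriceps samples, 6 per diet and day, was read on Affymetrix arrays. Per the submitters' processing notes, the authors deposited intensity values made with GCRMA, a background correction, quantile normalization and probe summary, of a version not given in the sources used here. Probe sets are named by Entrez gene number, 1 set for nearly every gene, by a probe definition whose version is likewise unknown here. The deposited intensities, whose range shows a linear scale, were put on the log2 scale with no offset. Control probe sets (64) were left out, as were probe sets with several gene symbols (589) or none in the annotation used (937). The brightest of a gene's probe sets was kept, with a log2 value over 4 on at least 6 arrays. limma 3.58.1 in R 4.3.3 was fitted to all 4 groups together (20 residual degrees of freedom, 5 comparisons), with p-values adjusted by Benjamini-Hochberg over the 5793 genes. The fit was tested on simulated data. The members and gene lists were chosen with earlier results of these data known. Named from each list were some of the genes called, at most 4 per comparison and not always those of smallest p. A few pathway genes were named whatever their values. The number of arrays limits the precision. Alternatives covered filter, offset, normalization, probe summary, weights, covariates and single arrays left out. The p-values measure the spread between mice.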

Additional observations from a re-analysis of the deposited data

Results flagged for a closer look

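Groups of 6 were examined for a single array far from the others, 28 groups in all, and 2 stood out, where chance gives about 1 in 20. Cpt1a in high fat muscle at day 28 had its lowest value, 3.488, in replicate 1, with the next array at 3.72, a gap of 0.668 of the group's range, all below the filter's log2 level of 4. Crat in high fat muscle at day 3 had its lowest value, 6.746, in replicate 5, with the next array at 7.013, a gap of 0.71 of the range. The diet change of Stk11 differed between the days by limma's interaction test, by 0.35 for day 28 minus day 3 (adjusted p = 0.0249), with a change of 0.13 at day 28 and -0.23 at day 3.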

How the results depend on the processing

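Settings that moved a count by over 1.5 times were as follows, with the replicate block given at the end. Members called numbered 1 with the slow fibre mean or the adipocyte mean as a covariate at day 28 (main 4), 1 with that day's arrays alone or the slow fibre mean at day 3 (main 3), and 1 with array weights between days on high fat (main 0). Genes called numbered 26 with the slow fibre mean and 35 with the adipocyte mean at day 28 (main 726), and 507 with that day's arrays alone and 17 with the slow fibre mean at day 3 (main 861). For the interaction (main 80) they numbered 6 without the filter, 278 with array weights and 10 with the adipocyte mean. Between days on high fat (main 32) they numbered 9 without the filter, 106 with array weights, 18 and 13 with the slow fibre and adipocyte means and 16 with the beta-actin ratio. On low fat (main 20) they numbered 3 without the filter, 40 after quantile normalization, 0 with only the low fat arrays, 132 with array weights, 34 and 0 with the slow fibre and adipocyte means and 7 with the beta-actin ratio. Without the filter, 2 carnitine supply genes were called at day 28 (main 1). After quantile normalization 52.8% of called genes were higher at day 28, against 42.7% before. The cause of these moves was not tested.

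Signs turned for values that were not called: Cpt2's interaction with array weights (-0.0197), Crat at day 3 with the slow fibre mean (-0.02935), and after quantile normalization Slc25a20 with Crat (r = 0.0525) and Cpt1a minus Cpt1b at day 3 (-0.00114). With 1 array left out, genes called ranged over 19 to 119 for the interaction, 3 to 50 between days on high fat and 0 to 59 on low fat. Cpt2's interaction ranged over -0.02881 to 0.07381, and Cpt1a at day 3 over 0.276 to 0.3752. Differences in change ranged over -0.0628 to 0.11 for Cpt1a minus Cpt1b and -0.0583 to 0.0677 for Cpt2 minus Crat at day 3, and over -0.0337 to 0.0762 for Cpt1b minus Mlycd and -0.0661 to 0.00486 for Cpt1b minus Slc25a20 at day 28. Members called ranged from 2 to 3 at day 3 and stayed at 4 at day 28.

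Replicate numbers were not used to pair the mice in the main fit. Same-numbered arrays correlated between -0.384 and 0.537, with 11 of 24 pairs over 0.1, and in 4 of 24 the best match had the same number. No chance level was computed for these values, so they cannot exclude an effect shared by replicate number. With the replicate block, the interaction called 176 genes (main 80) and the low fat days 32 (main 20), and no member's call changed. Cpt1a was not tested under the stricter filter. Low signal limits Slc22a5 and Cpt1a.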
